A study of Mus musculus with 4 samples.

Results

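The genes described here are 10 activators of the *Hoxa* cluster that work through the MLL methyltransferase, menin and Dot1l, namely *Kmt2a*, *Men1*, *Psip1*, *Dot1l*, *Mllt1*, *Mllt3*, *Mllt10*, *Aff1*, *Aff4* and *Ash1l*. They were taken by symbol, with no use of their values, from a table of 12067 genes, and all 10 were present. The libraries were made with Quant-seq, a method that primes cDNA from the poly-A tail and so counts each transcript near its 3′ end. The cells were donor-derived KL cells, the myeloid progenitors of the bone marrow sorted as CD45.2-positive, lineage-negative, cKit-positive and Sca-1-negative, 20 weeks after whole bone marrow was transplanted into irradiated *Ptprca* mice, a congenic C57BL/6 strain. Both groups came from donors with a floxed *Bcor* gene (Bcorfl/y) that were dosed with 5 mg tamoxifen at 3 to 6 months of age. The 2 BcorΔE9-10 libraries came from donors that also carried scl-Cre-ERT (HSC-SCL-Cre-ERT in the paper), a Cre active in haematopoietic stem cells. After tamoxifen this Cre removes exons 9 and 10 of *Bcor*. The 2 BcorWT libraries came from donors without this Cre. Loss of *Bcor* sequence and presence of the Cre transgene therefore cannot be told apart in this design. The paper defines BcorWT more widely, as littermates given tamoxifen that carried either the floxed gene alone or the Cre alone. The sources do not say whether each library came from a separate recipient, so p-values measure the spread between these 4 libraries only.

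KMT2A, also called MLL1, is a methyltransferase of H3K4 at active promoters, and menin and LEDGF, the products of *Men1* and *Psip1*, hold it on chromatin. ASH1L methylates H3K36, the mark that LEDGF reads. DOT1L methylates H3K79 over transcribed genes together with AF10, the product of *Mllt10*. AF9 and ENL, the products of *Mllt3* and *Mllt1*, are readers of acylated histones that join either DOT1L or the super elongation complex, of which AFF1 and AFF4 are the scaffolds. In stem cells and early progenitors this machinery keeps *Hoxa* genes and *Meis1* active, and many leukaemias with an *MLL* rearrangement fuse MLL to AF4 (AFF1), AF9, ENL or AF10. Polycomb complexes, among them the PRC1.1 complex that holds Bcor, repress the same cluster, and the longer isoforms of Bcor contain a binding domain for AF9.

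The promoters of 4 of the genes are shown because these genes later stand on opposite sides of a difference between the BcorWT libraries, *Kmt2a* and *Aff4* on one and *Men1* and *Mllt1* on the other. Each run is the 250 bases before the RefSeq start site on GRCm38.p6, read 5′ to 3′ on the strand of the gene, with CpG dinucleotides in capitals. The windows are chr9:44881290-44881539 (minus strand) for *Kmt2a*, chr11:53350517-53350766 (plus) for *Aff4*, chr19:6334729-6334978 (plus) for the first of 3 listed starts of *Men1*, and chr17:56935389-56935638 (minus) for *Mllt1*.
Kmt2a: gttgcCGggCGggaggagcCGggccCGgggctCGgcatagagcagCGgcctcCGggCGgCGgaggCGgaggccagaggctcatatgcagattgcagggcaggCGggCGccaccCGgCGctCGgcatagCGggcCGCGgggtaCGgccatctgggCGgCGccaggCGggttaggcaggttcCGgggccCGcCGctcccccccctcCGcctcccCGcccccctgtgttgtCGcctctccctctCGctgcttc
Aff4: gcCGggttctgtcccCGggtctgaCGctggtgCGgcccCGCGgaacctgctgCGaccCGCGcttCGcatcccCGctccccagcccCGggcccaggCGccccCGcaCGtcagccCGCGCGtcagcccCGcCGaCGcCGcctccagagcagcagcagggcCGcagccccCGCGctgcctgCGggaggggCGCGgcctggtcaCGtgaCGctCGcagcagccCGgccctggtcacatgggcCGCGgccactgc
Men1: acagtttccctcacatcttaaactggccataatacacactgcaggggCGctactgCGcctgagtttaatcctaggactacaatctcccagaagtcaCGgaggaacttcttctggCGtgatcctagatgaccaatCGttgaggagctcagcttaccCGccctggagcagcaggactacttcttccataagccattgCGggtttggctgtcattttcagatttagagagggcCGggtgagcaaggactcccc
Mllt1: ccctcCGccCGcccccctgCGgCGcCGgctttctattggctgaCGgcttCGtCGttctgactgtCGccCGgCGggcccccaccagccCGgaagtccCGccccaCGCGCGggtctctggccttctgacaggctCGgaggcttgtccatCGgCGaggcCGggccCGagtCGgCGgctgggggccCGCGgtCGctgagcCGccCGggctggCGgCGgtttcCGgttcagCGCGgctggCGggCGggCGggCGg
The letters searched were CG, which read the same on both strands. They occurred 29 times in the *Kmt2a* window, 34 times in *Aff4*, 37 times in *Mllt1* and 8 times in *Men1*. As many or more were present in 6.78%, 3.53%, 2.20% and 43.0% of the 32851 promoter windows of the RefSeq table, respectively. The *Dot1l* window (chr10:80754953-80755202, plus strand) held 44, reached by 0.539% of windows. Over the 10713 windows of genes in the count table the median was 16. The count table holds RNA only, and nothing was measured at these promoters.

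The libraries held 5058140 and 6253100.5 counts in BcorΔE9-10 replicates 1 and 2, and 3825289.5 and 4992205 in BcorWT replicates 1 and 2. The 10 genes together had 2548, 3104, 1803 and 1827 of these, in the same order. A level of 3 counts corresponded to between 0.489 and 0.876 CPM (counts scaled to library size and edgeR's TMM factors), and every value of the 10 genes lay above it. The BcorWT libraries were less alike (Pearson r = 0.893 across 12067 genes, which are not independent replicates) than the BcorΔE9-10 libraries (0.947). BcorWT replicate 2 stood apart from every library (0.893 to 0.902), while BcorWT replicate 1 was closer to the BcorΔE9-10 libraries (0.924 and 0.940) than to its own replicate. *Gm42418*, a non-coding RNA, took 27.9% of counts in BcorWT replicate 1 and 1.43% in BcorWT replicate 2, against 14.3 to 16.3% in BcorΔE9-10. *Bcor* had 19.2 and 18.4 CPM in BcorΔE9-10 and 16.9 and 14.9 CPM in BcorWT (104, 113, 58 and 79 counts), and because Quant-seq reads the transcript end and not exons 9 and 10, they say nothing on the deletion itself. All 8 genes listed as markers of KL cells were in the table, and their summed level, made up mostly of the granule genes *Mpo*, *Prtn3* and *Elane*, was 8332 to 10868 CPM in BcorΔE9-10 and 11029 to 11155 CPM in BcorWT. The close BcorWT sums hide opposite differences. *Elane* had 656 and 2140 CPM in BcorWT replicates 1 and 2, while *Mpo* had 6692 and 5331 CPM and *Prtn3* 2735 and 2548 CPM. In BcorΔE9-10 *Elane* had 904 and 732 CPM. Of the sort's own markers, *Kit* was at 29.4 CPM in BcorWT replicate 2 and at 52.1 to 61.9 CPM in the other libraries. Sca-1 (*Ly6a*) was at 0 to 3.80 CPM. The 7 markers of mature neutrophils, which the sort should remove, summed to 63030 and 154255 CPM in BcorΔE9-10 and 93870 and 141455 CPM in BcorWT. The 3 B cell markers analysed here summed to 13.4 to 32.3 CPM. *Xist*, expressed in female cells only, was at 2.40 and 3.91 CPM in BcorΔE9-10 and at 18.7 and 19.0 in BcorWT. The methods name male donors and female recipients.

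No activator gene differed by genotype beyond the spread between libraries. Of the 10 genes, 0 had an adjusted p under 0.05 in edgeR's quasi-likelihood test with Benjamini-Hochberg adjustment, where 0.0166% of all genes tested did, and their adjusted p ranged from 0.945 to 0.995. At an unadjusted p under 0.05 the count was also 0, against 4.42% of all genes. DESeq2 and limma-voom gave 0 of 10 at both thresholds as well, where 43 and 4 of all genes passed adjustment and 4.19% and 4.27% had an unadjusted p under 0.05. The log2 fold change (BcorΔE9-10 over BcorWT) was positive for 7 genes and negative for 3, with a median of 0.26, and over all genes 47.7% were positive and the median was -0.03. The groups did not overlap for 1 gene, *Dot1l*, which was higher in both BcorΔE9-10 libraries, where 33.9% of all genes did not overlap, 16.8% with BcorΔE9-10 higher and 17.1% with BcorΔE9-10 lower. For all 10 genes the log2 difference between the BcorWT libraries was larger in size than that between the BcorΔE9-10 libraries and than the genotype log2 fold change. The share of all genes with this order was not counted. Over all genes the BcorWT libraries were also the less alike pair (Pearson r = 0.893 against 0.947), so this order is not shown to be particular to the 10.

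**Figure D1:**
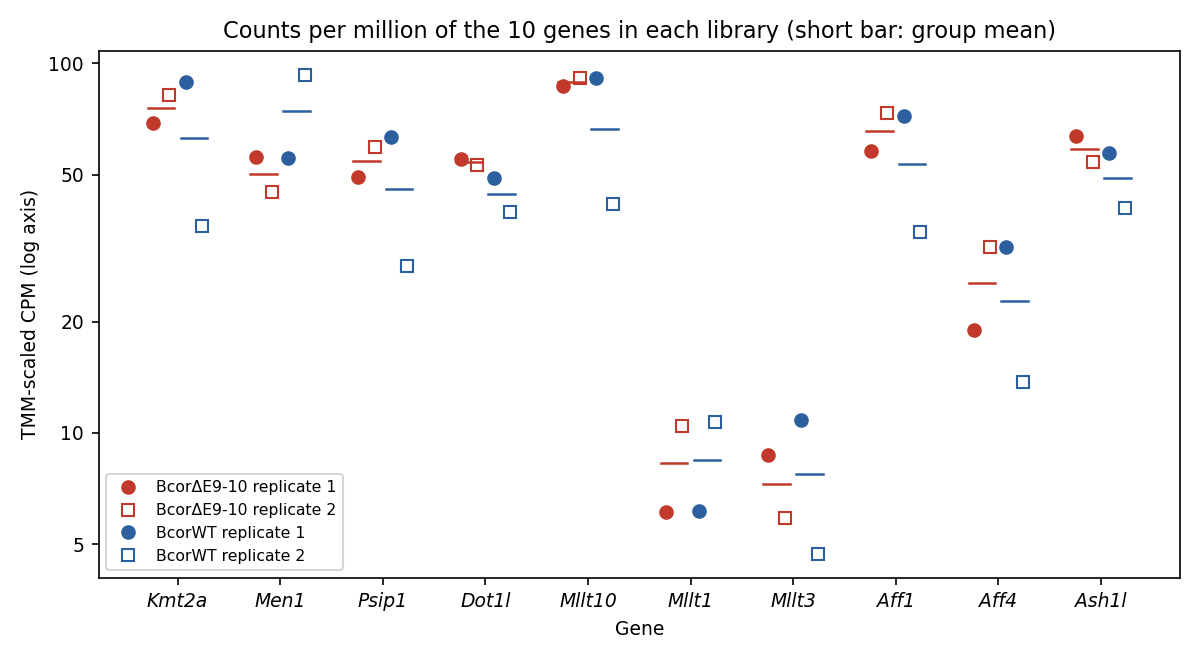
TMM-scaled CPM on a log axis (y) of the 10 genes (x) in the 2 BcorΔE9-10 libraries (red) and the 2 BcorWT libraries (blue); circles are replicates 1, open squares replicates 2, and short bars the group means. BcorWT replicate 2 is the lowest library for 8 genes and the highest for *Men1* and *Mllt1*.

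The methyltransferase gene *Kmt2a* (ENSMUSG00000002028) lies on the minus strand of chromosome 9, from 44803355 to 44881296 on GRCm38, the build of all gene positions here. It had 373 and 503 counts in BcorΔE9-10 and 305 and 193 in BcorWT. These were 68.9 and 82.0 CPM against 89.1 and 36.3 CPM. BcorWT replicate 1 was thus the highest library and BcorWT replicate 2 the lowest, with both BcorΔE9-10 libraries between them. The mean was 75.5 ± 9.23 CPM (SD, n = 2) in BcorΔE9-10 and 62.7 ± 37.3 CPM in BcorWT. The log2 fold change was 0.27 with a 95% interval of -0.75 to 1.30 (edgeR adjusted p = 0.962). The value was 1.05 without BcorWT replicate 1 and -0.24 without BcorWT replicate 2, so the choice of control library set its direction.

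*Men1*, which encodes menin, the adaptor through which MLL is held at *Hoxa* genes, took the opposite course. The gene (chromosome 19 from 6334979 to 6340891) had 301 and 275 counts in BcorΔE9-10 and 190 and 495 in BcorWT, or 55.6 and 44.8 CPM against 55.5 and 93.1 CPM. BcorWT replicate 2 stood above the other libraries, which lay close together. The log2 fold change of -0.57 (95% interval -1.41 to 0.27, edgeR adjusted p = 0.945) was the largest in size of the 10. It moved to -0.90 without BcorWT replicate 1 and to -0.14 without BcorWT replicate 2, and it was negative in all alternatives run.

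*Psip1* encodes LEDGF, which joins menin and MLL to nucleosomes methylated at H3K36. It had 49.2 and 59.3 CPM in BcorΔE9-10 and 63.4 and 28.2 CPM in BcorWT (266, 364, 217 and 150 counts). The order of the libraries was that of *Kmt2a*. The log2 fold change was 0.25 (95% interval -0.73 to 1.23), with -0.22 when BcorWT replicate 2 was left out. The 3′ end of *Psip1* (chromosome 4 from 83455680 to 83486459) lies within the body of *Snapc3* on the opposite strand, and the sources used here do not say whether the counting used the strand. *Snapc3* had 22.0 and 23.3 CPM in BcorΔE9-10 and 17.5 and 8.84 CPM in BcorWT.

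*Ash1l*, the H3K36 methyltransferase gene (chromosome 3 from 88950622 to 89079375), had 63.4 and 54.1 CPM in BcorΔE9-10 against 57.2 and 40.6 CPM in BcorWT (343, 332, 196 and 216 counts). BcorWT replicate 1 lay between the BcorΔE9-10 libraries. The log2 fold change was 0.27 (95% interval -0.50 to 1.03) and ran from 0.037 to 0.53 with each library dropped in turn, and was -0.031 after a correction for the GC content of transcript ends.

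*Dot1l*, the H3K79 methyltransferase gene, had the closest pair of values in BcorΔE9-10. The gene (chromosome 10 from 80755206 to 80795461) had 298 and 325 counts in BcorΔE9-10 and 168 and 211 in BcorWT. These were 55.1 and 53.0 CPM against 49.1 and 39.7 CPM, and both BcorΔE9-10 libraries lay above both BcorWT libraries. The mean was 54.0 ± 1.48 CPM (SD, n = 2) against 44.4 ± 6.62 CPM, a log2 fold change of 0.29 with a 95% interval of -0.43 to 1.00 (edgeR adjusted p = 0.949). It was positive in all alternatives run, from 0.14 to 0.46.

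*Mllt10*, whose product AF10 helps DOT1L reach the higher methylation states of H3K79, had 87.0 and 91.1 CPM in BcorΔE9-10 and 91.4 and 41.6 CPM in BcorWT (471, 559, 313 and 221 counts). The other libraries lay close together and BcorWT replicate 2 stood below them. The log2 fold change was 0.43 (95% interval -0.53 to 1.38), the highest of the 10. It was 1.09 without BcorWT replicate 1 and -0.04 without BcorWT replicate 2. The 3′ end of the gene (chromosome 2 from 18055237 to 18212388) lies within the body of *Dnajc1* on the opposite strand, which had 34.0 and 42.4 CPM in BcorΔE9-10 and 35.9 and 27.5 CPM in BcorWT.

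The paralogous readers *Mllt1* and *Mllt3* had the fewest counts. *Mllt1*, which encodes ENL, had 33 and 64 counts in BcorΔE9-10 and 21 and 57 in BcorWT, or 6.10 and 10.4 CPM against 6.13 and 10.7 CPM. *Mllt3*, which encodes AF9 and is itself a regulator of haematopoietic stem cell maintenance, had 47 and 36 counts against 37 and 25, or 8.69 and 5.87 CPM against 10.8 and 4.70 CPM. Replicates 2 were the higher libraries of both genotypes for *Mllt1* and the lower ones for *Mllt3*. The log2 fold changes were -0.04 (95% interval -1.24 to 1.16) and -0.07 (-1.38 to 1.24). Both intervals include a 2-fold change in either direction.

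The next genes encode the scaffolds of the super elongation complex. *Aff1* (chromosome 5 from 103692374 to 103855322) had 57.8 and 73.5 CPM in BcorΔE9-10 and 72.1 and 35.0 CPM in BcorWT (313, 451, 247 and 186 counts). *Aff4* (chromosome 11 from 53350833 to 53421830) had 19.0 and 31.8 CPM against 31.8 and 13.7 CPM (103, 195, 109 and 73 counts). In both genes BcorWT replicate 1 was level with BcorΔE9-10 replicate 2, and BcorWT replicate 2 was the lowest library. The log2 fold changes were 0.30 (95% interval -0.64 to 1.24) for *Aff1* and 0.17 (-0.93 to 1.28) for *Aff4*. Without BcorWT replicate 2 they were -0.13 and -0.32.

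**Figure D2:**
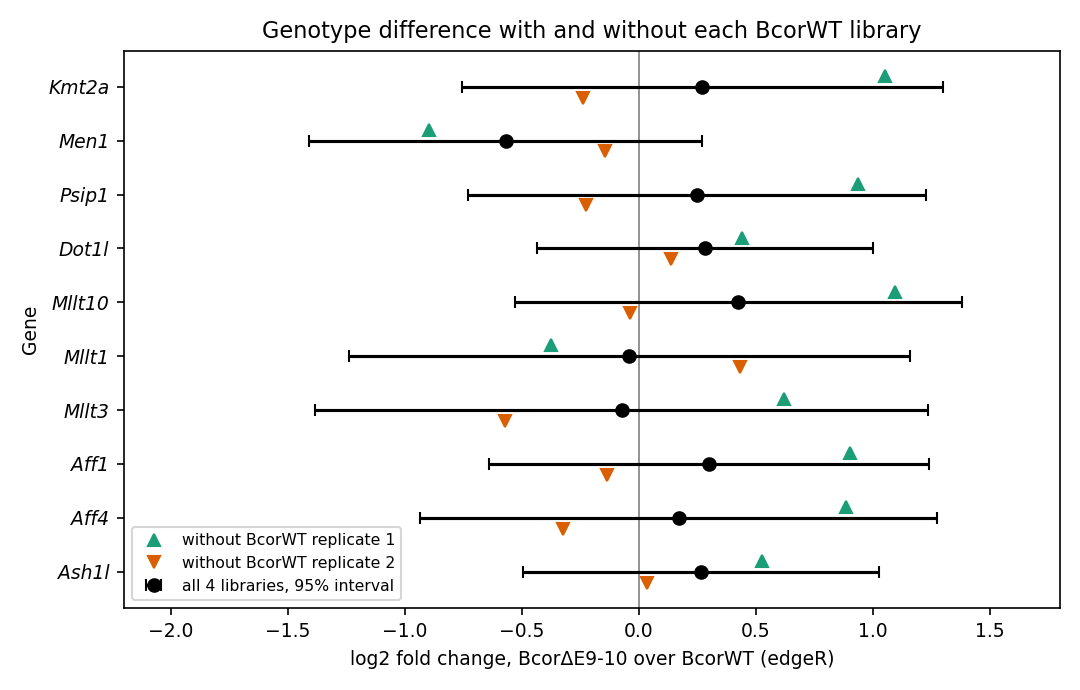
log2 fold change of each gene (x, BcorΔE9-10 over BcorWT, edgeR) with its 95% interval (black, all 4 libraries) and the value without BcorWT replicate 1 (green) or without BcorWT replicate 2 (orange). Every interval spans 0, and the values without the one or the other BcorWT library lie on opposite sides of 0 for *Kmt2a*, *Psip1*, *Mllt10*, *Mllt1*, *Mllt3*, *Aff1* and *Aff4*. The share of all genes with such a change of sign was not counted.

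The values that varied together in these genes were those of the BcorWT libraries. BcorWT replicate 2 was the lowest of the 4 libraries for 8 of the 10 genes, as for 36.1% of all genes, and the highest for *Men1* and *Mllt1*, as for 34.5% of all genes. *Kmt2a*, *Psip1*, *Mllt3*, *Mllt10*, *Aff1* and *Aff4* lay lower in BcorWT replicate 2 than in BcorWT replicate 1 by a log2 difference of -1.29 to -1.03. *Ash1l* differed by -0.49 and *Dot1l* by -0.30, while *Men1* and *Mllt1* were higher by 0.74 and 0.77. The median of the 10 genes was -1.08, against -0.04 over all genes. Between the BcorΔE9-10 libraries (replicate 2 minus replicate 1) it was 0.16, against 0.00 over all genes. A gap wider than that of *Kmt2a*, in either direction, was seen between the BcorWT libraries for 14.6% of all genes. These library differences have no replicates, and no test was made of them. With BcorWT replicate 1 left out, *Kmt2a*, *Psip1*, *Mllt10* and *Aff1* (higher in BcorΔE9-10) and *Men1* (lower) had an unadjusted p under 0.05 in edgeR, 5 of 10 genes beside 25.0% of all genes in that fit, and 0 passed adjustment, with the lowest adjusted p at 0.0612 (*Mllt10*).

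The base composition of the counted transcript ends moved with these differences across genes, and its part in them was not tested. GC content was read from the last 500 bases of the longest coding transcript of each gene in GENCODE M21, which 10223 genes (84.7%) and all 10 activators had. Across those genes, which share the same libraries and are not independent, Spearman's rho of GC content was 0.477 with the difference of BcorWT replicate 2 from replicate 1 and -0.444 with the genotype log2 fold change. It was -0.145 with the difference between the BcorΔE9-10 libraries. The BcorWT difference and the genotype log2 fold change both contain BcorWT replicate 2, so their rho values are not separate results. With the genes cut into 5 equal groups by GC content, the median genotype log2 fold change was 0.25 in group 1, the lowest in GC, and -0.36 in group 5. *Mllt10* (30.4% GC), *Ash1l* (30.6%), *Kmt2a* (33.4%) and *Psip1* (34.8%) were in group 1, and *Mllt3* (37.0%), *Aff4* (40.2%) and *Aff1* (41.2%) in group 2. *Men1* (49.8%) and *Dot1l* (51.0%) were in group 4 and *Mllt1* (52.2%) in group 5. With a smooth of GC content removed from each library in edgeR, an alternative chosen after the data were examined, the median log2 fold change of the 10 genes was 0.08 in place of 0.26. That of *Kmt2a* was 0.08, of *Men1* -0.38, of *Mllt10* 0.18 and of *Dot1l* 0.46. Such a smooth also takes out any genotype difference that follows GC content. Of the 10 genes 0 passed at either threshold in that fit, where 0 of all genes passed adjustment and 4.06% had an unadjusted p under 0.05. After the same correction *Kmt2a*, *Psip1*, *Mllt3*, *Mllt10*, *Aff1* and *Aff4* differed between the BcorWT libraries by -0.97 to -0.54. *Men1* was then at 0.40 in place of 0.74 and *Mllt1* at 0.30 in place of 0.77, *Ash1l* was at 0.09, and the difference of *Dot1l* was wider, at -0.71 in place of -0.30.

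**Figure D3:**
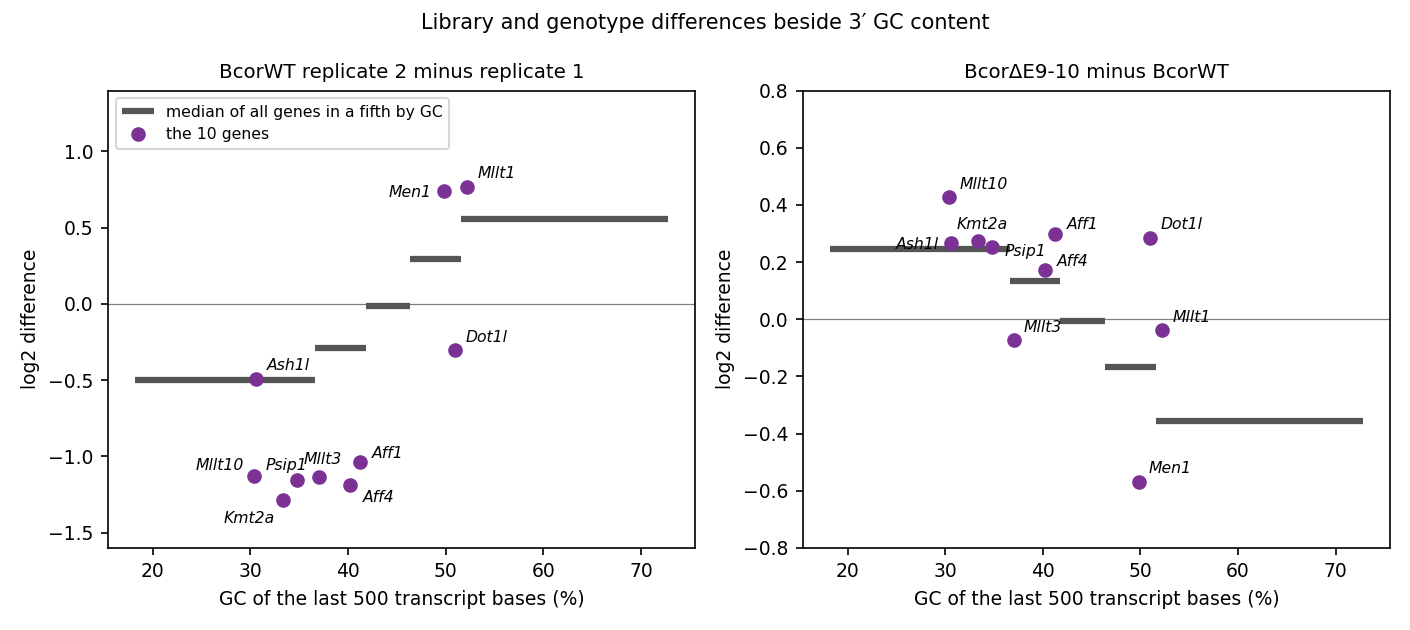
log2 difference (y) of BcorWT replicate 2 from replicate 1 (left) and of BcorΔE9-10 from BcorWT (right) beside the GC content of the last 500 transcript bases (x) for the 10 genes (points). Grey bars are medians of all genes in each of 5 groups by GC content, which climb from -0.50 to 0.56 on the left and descend from 0.25 to -0.36 on the right.

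Marker levels other than *Kit* and *Elane* also differed between the BcorWT libraries. The summed level of the 4 stem cell markers in the table (of 7, namely *Meis1*, *Hlf*, *Mllt3* and *Ly6a*, of which *Mllt3* and *Meis1* are described here in their own right) was 53.1 and 27.5 CPM in BcorWT and 42.5 and 33.3 CPM in BcorΔE9-10. That of the 4 megakaryocyte markers (of 5) was 110 and 266 CPM in BcorWT and 108 and 141 CPM in BcorΔE9-10. Among them *Gp1bb* (62.2 and 187 CPM in BcorWT replicates 1 and 2), *Itga2b* (16.1 and 47.6) and *Pf4* (23.4 and 30.1) were higher in BcorWT replicate 2. *Vwf* was lower there (7.88 and 0.753 CPM). The 5 basophil and mast cell markers summed to 329 and 412 CPM in BcorWT and 101 and 115 CPM in BcorΔE9-10. Of these, *Prss34* had 138 and 237 CPM in BcorWT replicates 1 and 2, and *Cpa3* 34.5 and 42.2 CPM. *Mcpt8* (131 and 116 CPM), *Ms4a2* (19.0 and 13.2) and *Fcer1a* (6.72 and 3.95) were lower in BcorWT replicate 2. For the 4 eosinophil markers (of 5) the sums were 256 and 349 CPM in BcorWT against 175 and 133 CPM in BcorΔE9-10. The 5 erythroid markers analysed here summed to 19.6 and 46.7 CPM in BcorWT and 77.4 and 72.5 CPM in BcorΔE9-10. For monocytes and dendritic cells the 5 markers (of 6) summed to 330 and 371 CPM in BcorWT against 287 and 232 CPM in BcorΔE9-10. *Irf8* (280 and 274 CPM in BcorWT) and *Ly86* (3.80 and 1.69) were lower in BcorWT replicate 2. *Csf1r* (35.6 and 53.3), *Cd74* (4.67 and 16.2) and *H2-Aa* (5.55 and 25.2) were higher there. For T and NK cells the 2 markers (of 5, no *Cd3* gene among them) summed to 130 and 255 against 148 and 129 CPM. That sum was nearly all *Nkg7* (128 and 251 CPM in BcorWT), with *Klrb1c* at 2.63 and 3.95 CPM. The part of cell composition in the levels of the activators was not tested. In sorted bulk cells, fewer cells of a type and less RNA per cell cannot be told apart.

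The partners of these genes were read from lists of complex members. Of 19 MLL/SET1 subunits and relatives, all in the table, 0 passed adjustment and 0 had an unadjusted p under 0.05, with a median log2 fold change of 0.09. The groups did not overlap for 6 of them, 2 higher and 4 lower in BcorΔE9-10, beside 33.9% of all genes in either direction. *Setd1a*, the H3K4 methyltransferase gene of a sister complex, had 67.3 and 54.8 CPM in BcorΔE9-10 and 67.2 and 202 CPM in BcorWT, so it shared with *Men1* a high value in BcorWT replicate 2. Its log2 fold change was -1.14 (95% interval -2.31 to 0.03), or -0.14 without that library. With BcorWT replicate 1 left out it was -1.73 (edgeR adjusted p = 0.0151), in a fit where 596 genes passed adjustment. *Tasp1*, which encodes the protease that cleaves MLL, had 19 and 20 counts in BcorΔE9-10 and 6 and 5 in BcorWT, which gave a log2 fold change of 1.35 (95% interval -0.36 to 3.07).

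Of 13 genes of the super elongation complex and the P-TEFb kinase 10 were in the table. *Ccnt1*, which encodes the cyclin of P-TEFb, had 406 and 485 counts in BcorΔE9-10 and 175 and 160 in BcorWT. These were 75.0 and 79.1 CPM against 51.1 and 30.1 CPM, and the groups did not overlap. Its log2 fold change was 0.93 (95% interval 0.10 to 1.76), with an unadjusted p of 0.0326 and an adjusted p of 0.945 in edgeR. It was 0.75 after the GC correction, 1.35 without BcorWT replicate 1 (adjusted p = 0.0363) and 0.59 without BcorWT replicate 2. *Ccnt1* was the only gene of this list with an unadjusted p under 0.05, 1 of 10, beside 4.42% of all genes in either direction. *Ell*, an elongation factor gene also fused to *MLL* in leukaemia, had 14.6 and 11.6 CPM against 11.1 and 31.8 CPM. That gave a log2 fold change of -0.73 (95% interval -1.93 to 0.48), with -1.29 without BcorWT replicate 1 and 0.24 without BcorWT replicate 2.

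All 6 genes of the Paf1 complex, which binds MLL and elongating polymerase, were in the table with a median log2 fold change of -0.03. *Wdr61* was at 0.61 (95% interval -0.20 to 1.41), with 0.92 and 0.34 without BcorWT replicate 1 or 2. *Paf1* was at -0.16 (-0.89 to 0.58), with -0.010 and -0.30 without the same libraries and 0.060 after the GC correction. Of 13 genes in the table from the Dot1l complex, the H2B ubiquitin enzymes and the relatives of *Psip1* and *Ash1l*, 11 had a positive log2 fold change, 0 had an unadjusted p under 0.05 and the median was 0.35, beside 47.7% positive and a median of -0.03 over all genes. *Usp22*, an H2B deubiquitinase gene, had 33.3 and 37.7 CPM in BcorΔE9-10 and 22.2 and 24.5 CPM in BcorWT, a log2 fold change of 0.60 (95% interval -0.13 to 1.33). *Mllt6*, the paralogue of *Mllt10*, had 37 and 31 counts in BcorΔE9-10 and 12 and 14 in BcorWT, which gave a log2 fold change of 0.96 (-0.39 to 2.31). BcorWT replicate 2 was the lowest library for 8 of these 13 genes and for 4 of the 6 Paf1 complex genes. It was the lowest for 9 of the 19 MLL/SET1 genes and 5 of the 10 of the super elongation complex and P-TEFb. Among the 6 targets described next it was the lowest for 4, beside 36.1% of all genes.

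Of 8 *Hoxa* and cofactor genes listed as targets 6 were in the table, and 5 of these did not overlap between groups, all higher in BcorΔE9-10, as 16.8% of all genes were. *Hoxa5*, *Hoxa7*, *Hoxa9* and *Hoxa10* had log2 fold changes of 2.19, 1.39, 1.87 and 1.90, all with an unadjusted p under 0.05 in edgeR (1.34% of all genes were higher at that threshold) and 0 with an adjusted p under 0.05, while *Meis1* was at -0.01 and *Pbx3*, a cofactor gene, at 0.42. *Hoxa9* had 327 and 307 counts in BcorΔE9-10 and 59 and 70 in BcorWT, or 55.2 ± 7.35 CPM (SD, n = 2) against 15.2 ± 2.87 CPM. Its adjusted p was 0.419 in edgeR, 0.0164 in edgeR without BcorWT replicate 1 and 0.0150 in DESeq2, and over all alternatives it ranged from 0.0150 to 0.999. *Hoxa7* had 124 and 67 counts in BcorΔE9-10 and 27 and 27 in BcorWT, and its log2 fold change was 0.76 without BcorΔE9-10 replicate 1. Without BcorWT replicate 2 neither *Hoxa7* (edgeR unadjusted p = 0.0723) nor *Hoxa10* (0.0725) had an unadjusted p under 0.05. *Hoxa10* had 44 and 54 counts in BcorΔE9-10 and 13 and 5 in BcorWT, and its log2 fold change was 1.66 after the GC correction, 3.14 without BcorWT replicate 1 (edgeR adjusted p = 0.0375) and 1.15 without BcorWT replicate 2. *Meis1* had 22.4 and 13.2 CPM in BcorΔE9-10 and 24.5 and 11.7 CPM in BcorWT, with the lower value in replicate 2 of both genotypes. Its log2 fold change was 0.60 without BcorWT replicate 1 and -0.47 without BcorWT replicate 2, and that of *Pbx3* was 0.24 and 0.65. The difference between the targets and the activators was not itself tested.

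**Figure D4:**
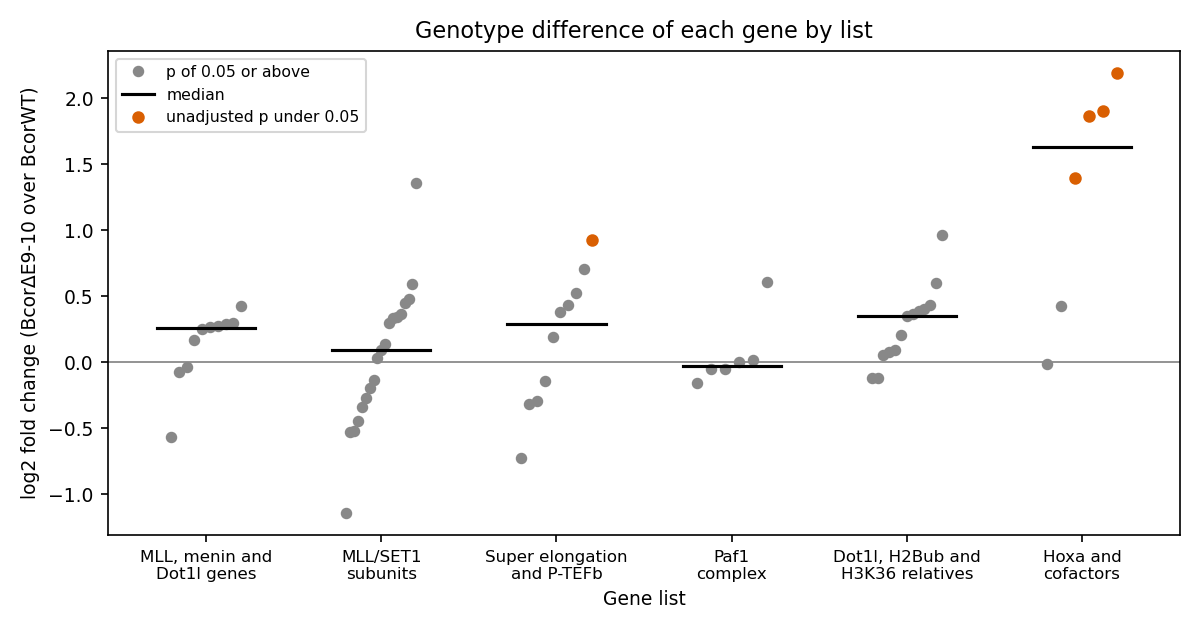
log2 fold change (y, BcorΔE9-10 over BcorWT) of each gene in the list of activators and the 5 lists of partners and targets (x), with the median as a bar and genes with an unadjusted p under 0.05 in orange. The 10 activators lie between -0.57 and 0.43, and the 4 *Hoxa* genes between 1.39 and 2.19.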

How the data were processed

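Per the labels and the methods, the authors trimmed reads with cutadapt, used HISAT2 for mapping to mm10 (GRCm38) and featureCounts of Subread for counts per gene. The deposited table holds unnormalized counts, and in BcorΔE9-10 replicate 2 and BcorWT replicate 1 the deposited values were treated as estimated counts because *Gm4430* is not whole there; values were rounded. The annotation and the gene filter behind it are not given in the sources used here. From the counts, edgeR 4.0.16 in R 4.3.3 was run over all 12067 genes with filterByExpr (0 genes removed), TMM, a quasi-likelihood F test, a prior count of 0.125 and Benjamini-Hochberg adjustment at 0.05. The standard error was the log2 fold change over the square root of F, and 95% intervals used the fit's total degrees of freedom. Differences between single libraries used log2 CPM with a prior count of 2. Alternatives used limma 3.58.1 (voom) and DESeq2 1.42.0. Fits were tested on simulated counts. No molecular identifiers are described, so floors cover counting error only. Gene positions came from GENCODE M21, in which all 10 genes were found, and promoters from a table made from RefSeq on GRCm38.p6, in which 8 of the 10 genes were matched. The genes and lists were chosen with earlier results of these data known. All 10 activators were named. From each partner list, genes with an unadjusted p under 0.05 were named. Where there were fewer than 2 of these, the 2 genes with the log2 fold change largest in size were named. All targets in the table were compared. *Snapc3* and *Dnajc1* were chosen after their values were seen. Figures were drawn with matplotlib 3.10.9.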

Additional observations from a re-analysis of the deposited data

How the results depend on the processing

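No alternative brought any of the 10 genes past adjustment, and *Men1* and *Dot1l* kept their direction in all 13. With each library left out in turn, the log2 fold change ranged from -0.13 to 0.90 for *Aff1*, -0.32 to 0.89 for *Aff4*, -0.24 to 1.05 for *Kmt2a*, -0.22 to 0.94 for *Psip1*, -0.037 to 1.09 for *Mllt10*, -0.57 to 0.62 for *Mllt3* and -0.47 to 0.43 for *Mllt1*. The lowest of these was without BcorWT replicate 2 and the highest without BcorWT replicate 1, except for *Mllt1* (lowest without BcorΔE9-10 replicate 2, highest without BcorWT replicate 2). limma-voom gave 0.077 for *Mllt3*, and the GC correction, added after the data were examined, gave 0.25 for *Mllt1* and -0.031 for *Ash1l*. Over the 4 fits with 1 library left out, the lone library of a group being assumed to vary like the others, the median of the 10 genes ranged from -0.14 to 0.75 and the number with an unadjusted p under 0.05 from 0 to 5. With total counts and no scaling factor, the groups did not overlap for 3 of the 10 genes in place of 1, beside 33.8% of all genes under that scaling. Of all genes, 2 passed adjustment, against 5 with at least 10 counts in every library, 4 with limma-voom, 43 with DESeq2, 0 with the GC correction (415 at an unadjusted p under 0.05, in the 10223 genes with a GC value, which leaves out the 2) and 6 to 596 with 1 library left out, the most without BcorWT replicate 1; beyond the smaller number of genes, the cause was not tested. The labels tie libraries with a replicate number in common by that number only. Such libraries deviated from the mean of their group with r = -0.0945 across genes, which does not settle whether they share a batch. With the replicate block 14 genes passed, 0 of the 10 activators did, and the median of the 10 was 0.29. DESeq2's size factors, a prior count of 2 and leaving out *Gm42418* changed no direction. The prior count of 2 left the p-values of the 10 genes as they were. With no filter the fit was the main fit itself, because filterByExpr removed 0 genes, so it is no separate check among the 13.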

Other observations

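Transcript length moved with the same differences to a smaller extent. Across the 10203 genes with a coding length and 1 symbol match in GENCODE M21, Spearman's rho of the length of the longest coding transcript was -0.205 with the difference of BcorWT replicate 2 from replicate 1 and 0.150 with the genotype log2 fold change. *Kmt2a* (16470 bases), *Ash1l* (11644), *Aff4* (10099), *Aff1* (8323), *Dot1l* (6808) and *Mllt3* (6069) were in the longest of 5 equal groups of genes by length, from 5080 bases. In that group the median difference between the BcorWT libraries was -0.29 and the median genotype log2 fold change 0.09. *Psip1* (3251 bases) and *Men1* (2975) were both in group 3, and their differences between the BcorWT libraries were -1.16 and 0.74. *Mllt10* (5063 bases) and *Mllt1* (3636) were in group 4, with -1.13 and 0.77. Length and GC content were not separated, and the part of either in these differences was not tested.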
